A study of Mus musculus with 6 samples.

Results

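The genes described are 10 transcriptional targets of the tumour suppressor p53 that act in cell cycle arrest and the stress response: Cdkn1a, Mdm2, Ccng1, Trp53inp1, Phlda3, Sesn1, Sesn2, Zmat3, Plk2 and Aen. Every probe set of the array that is listed with 1 of these symbols alone was taken, which gave 24 of 45037 probe sets (10 of 18193 genes). The rule uses no measured value, but the list of genes was drawn up with earlier results of these data known. RNA came from bone marrow cells of C57BL/6 mice that lack Cry1 and Cry2 (arrays DKO 1, DKO 2 and DKO 3) and of wild type mice of that strain (WT 1, WT 2 and WT 3). All cells had been cultured in serum with interleukin-7, a cytokine that sustains early B lymphocytes, and the labels give no treatment, age or sex. Nothing in the labels tells whether the 3 arrays of a genotype stand for separate mice or separate cultures. The p-values therefore cover only the spread among arrays, and that spread may be technical. The comparison asked is DKO against WT, given with all 6 arrays and without WT 2.

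p53 is a transcription factor that is held low by the ubiquitin ligase MDM2 and accumulates when DNA is damaged or nutrients and redox balance are disturbed. It binds pairs of a short repeat, the p53 decamer, and turns on genes that stop the cell cycle, limit growth signalling and, at higher activity, kill the cell. Developing B cells pass through bursts of division and programmed DNA breakage, and p53 is part of the control of both. Cryptochromes repress the CLOCK and BMAL1 transcription factors, which act through E-boxes.

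Promoter windows of RefSeq (build GRCm38.p6, from 250 bases before to 50 bases after an annotated start) were matched for 8 of the 10 genes, 11 windows in all, and not for Trp53inp1 and Zmat3. The stretches printed show where the p53 decamer consensus lies in the promoters of the best known arrest gene, of the feedback gene and of cyclin G1. They run 5′ to 3′ on the strand of the gene, with the decamers in capitals.
Cdkn1a, chr17:29090891-29090952, plus strand: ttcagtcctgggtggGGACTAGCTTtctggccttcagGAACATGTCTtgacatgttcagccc
Mdm2, chr10:117710920-117710959, minus strand: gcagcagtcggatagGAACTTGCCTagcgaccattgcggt
Ccng1, chr11:40755447-40755486, minus strand: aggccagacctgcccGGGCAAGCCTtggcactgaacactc
The Cdkn1a stretch lies 88 to 27 bases upstream of the first of its annotated starts, and the second start lies 2790 bases further along the gene. Its 2 decamers are 12 bases apart. A pair at a spacing of 0 to 13 bases was found in 24 of 32851 windows of the whole promoter table (0.0731%), and Cdkn1a was the only gene of the 8 with one. A single decamer was found in 8.36% of all windows and in windows of 5 of the 8 genes, namely Cdkn1a, Mdm2, Ccng1, Sesn1 and Aen. The consensus reads the same on both strands. The E-box CACGTG, also its own reverse complement, was found in 7.15% of all windows and, among the 8 genes, in a window of Aen. These shares count windows, and Cdkn1a, Sesn1 and Aen have 2 windows each, so they do not compare directly with counts of genes.
Aen, chr7:78895937-78895946 with flanking bases, p53 decamer, plus strand: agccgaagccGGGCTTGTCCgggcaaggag
Aen, chr7:78895979-78895984 with flanking bases, E-box, plus strand: gcaagggttcCACGTGaaacctggga
These matches describe the letters of the windows only. No binding was measured.

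The arrays differed in quality. WT 2 had an Actb 3′ to 5′ control ratio of 824, where the other 5 arrays had 1.47 to 2.05, a median signal of 115 against 44.0 to 55.3, and correlations across tested probe sets of 0.752 to 0.780 with the others. Correlations among the other 5 were at least 0.936, the lowest between DKO 1 and DKO 3. The Gapdh 3′ to 5′ ratio was 132 on WT 2, 1.72 on DKO 1 and 0.838 to 0.904 on DKO 2, DKO 3, WT 1 and WT 3. DKO 1 also had the highest Actb ratio of these 5 arrays, 2.05. Cry1 signal was 359 to 545 on the DKO arrays and 955 to 1533 on the WT arrays, and Cry2 signal was 133 to 178 and 102 to 145. After centring, every DKO array read below every WT array for Cry1, with log2 differences of -1.26 and, without WT 2, -1.48. For Cry2 every DKO array read above every WT array (0.70 and 0.29). With all 6 arrays, 2.11% of tested genes had groups apart on the lower side and 8.49% on the higher. Whether the Cry1 and Cry2 probe sets lie in the deleted parts of the genes was not tested. The label of bone marrow cells grown in interleukin-7 was set against 12 B lineage markers with a probe set, of which 0 lay below the array median on all arrays. Their summed signal was 127460, 131758 and 83362 on DKO 1 to DKO 3 and 86622, 152840 and 90863 on WT 1 to WT 3. Summed signals are not centred, so that of WT 2 has to be read against its higher median. Markers of other cells were present too. In bulk RNA, fewer cells of a type and less RNA per cell cannot be told apart.

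With all 6 arrays, 9 of the 10 genes read higher in DKO than in WT and Sesn1 read lower, and none of the 10 passed the threshold. Each gene is described by its brightest probe set, on the scale of log2(signal + 16) after centring each array on its median. A higher mean in DKO was also found for 69.9% of the 12612 genes tested. The median log2 difference was 0.74 over the 10 genes and 0.31 over all genes tested. Over all tested probe sets the median was 0.21, and it was -0.02 under quantile normalization, where the median of the 10 genes was 0.48 and the same count of 9 read higher. Adjusted p over all 27022 tested probe sets (limma, Benjamini-Hochberg) lay between 0.822 and 0.840 for the 10 genes, and 0 of them had an unadjusted p under 0.05, where 3.3% of all tested genes did. Among all tested, 0.0074% of probe sets (2) and 0.00793% of genes passed the threshold of 0.05. Without WT 2, all 10 genes read higher in DKO, against 51.8% of 12575 genes tested. The median log2 difference was then 0.32 over the 10 genes and 0.01 over all genes, with limma adjusted p from 0.949 to 0.999. Then 0.0222% of probe sets (6) and 0.0159% of genes passed. Again 0 of the 10 had an unadjusted p under 0.05, where 4.18% of all tested genes did. At this spread, differences of the size seen here could not be told from 0.

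**Figure D1:**
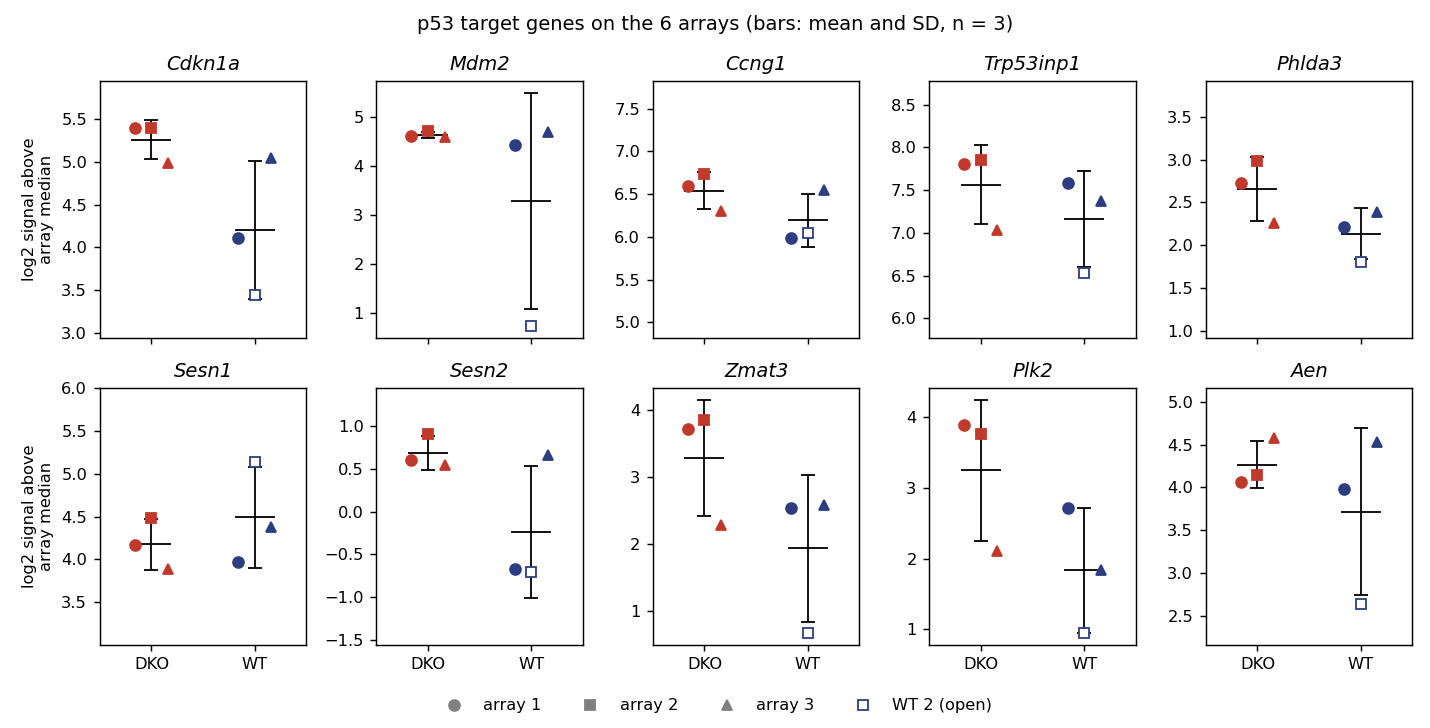
Log2 signal above the array median (y axis) of the brightest probe set of each gene on the 3 DKO arrays (red) and the 3 WT arrays (blue), with the mean and SD of each genotype as bars (n = 3) and WT 2 as an open symbol, each panel on its own y range. WT 2 is the lowest array for 8 of the 10 genes and the highest for Sesn1, and DKO 3 sits below DKO 1 and DKO 2 for all genes but Aen.

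Cdkn1a encodes p21, the inhibitor of cyclin-dependent kinases through which p53 halts the cell cycle. Its signal was 2991, 2922 and 1895 on DKO 1 to DKO 3 and 1198, 1413 and 2036 on WT 1 to WT 3. The groups overlapped because WT 3 read above DKO 3. The deposited signal of WT 2 has to be read against the higher median of that array, and after centring WT 2 was the lowest array. The centred log2 level in DKO was 5.26 ± 0.23 (SD, n = 3), and the level in WT was 4.20 ± 0.80 (SD, n = 3). The genotypes differed by 1.06 (standard error, SE, 0.51), and by 0.68 (SE 0.32) without WT 2. The second Cdkn1a probe set differed by 1.76 with all 6 arrays and by 0.48 without WT 2, so both probe sets of the gene read higher in DKO in each comparison.

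Ccng1 encodes cyclin G1, which recruits phosphatase 2A to MDM2. Its signal was 6860, 7396 and 4725 on DKO 1 to DKO 3 and 4433, 8674 and 5808 on WT 1 to WT 3. DKO 3 lay within the range of the WT arrays. The difference was 0.35 (SE 0.33) on the log2 scale, and 0.27 (SE 0.23) without WT 2. Its other probe sets read 0.00 and 0.89, and -0.09 and 0.06 without WT 2.

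Plk2 encodes a polo-like kinase that p53 induces after DNA damage and that acts on centriole duplication. Its signal was 1043, 933 and 242 on DKO 1 to DKO 3 and 447, 238 and 207 on WT 1 to WT 3. DKO 1 and DKO 2 stood above every WT array, and DKO 3 did not. The centred log2 level in DKO was 3.25 ± 1.00 (SD, n = 3), and the level in WT was 1.84 ± 0.88 (SD, n = 3). This gave the largest difference of the 10 brightest probe sets, 1.42 (SE 0.66), and 0.97 (SE 0.58) without WT 2. The other Plk2 probe set lay below the filter on low signal and was not tested.

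Zmat3 encodes an RNA-binding zinc finger protein that regulates splicing and RNA stability downstream of p53. Its signal was 925, 989 and 275 on DKO 1 to DKO 3 and 394, 194 and 356 on WT 1 to WT 3. As for Plk2, DKO 1 and DKO 2 were the 2 highest arrays, and DKO 3 lay below WT 1 and WT 3 after centring. The difference was 1.35 (SE 0.69), and 0.72 (SE 0.48) without WT 2. The array carries a single probe set for Zmat3.

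Mdm2 encodes the ubiquitin ligase that marks p53 for degradation, and its induction by p53 closes a feedback loop. Its signal was 1727, 1819 and 1435 on DKO 1 to DKO 3 and 1502, 202 and 1596 on WT 1 to WT 3. The 5 arrays other than WT 2 lay within 4.43 to 4.72 on the centred log2 scale, and WT 2 read 0.73. The difference was 1.35 (SE 1.02) with all 6 arrays and 0.08 (SE 0.20) without WT 2. The other tested Mdm2 probe set read 0.22 and, without WT 2, -0.40. On that probe set DKO 1 read 1.04 on the centred log2 scale, and DKO 2 and DKO 3 read 2.62 and 2.69.

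Trp53inp1 encodes a nuclear stress protein that promotes p53 phosphorylation and also takes part in autophagy. Its signal was 15869, 16171 and 7829 on DKO 1 to DKO 3 and 13463, 12082 and 10300 on WT 1 to WT 3. DKO 3 was the lowest of the 5 arrays other than WT 2. The difference was 0.40 (SE 0.39), and 0.08 (SE 0.27) without WT 2. A much dimmer Trp53inp1 probe set read -0.09 and, without WT 2, 0.47.

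Phlda3 encodes a pleckstrin homology domain protein that competes with AKT for membrane lipids and so lowers AKT signalling. Its signal was 458, 538 and 270 on DKO 1 to DKO 3 and 309, 443 and 309 on WT 1 to WT 3. On the centred scale DKO 1 and DKO 2 stood above the WT arrays and DKO 3 lay between WT 1 and WT 3. The difference was 0.52 (SE 0.38), and 0.36 (SE 0.29) without WT 2.

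The sestrins Sesn1 and Sesn2 restrain the growth kinase complex mTORC1 and support antioxidant defence, and Sesn2 is also induced through ATF4 when amino acids are scarce. The brightest Sesn2 probe set read 92.7, 115 and 71.5 on DKO 1 to DKO 3 and 28.3, 64.5 and 82.0 on WT 1 to WT 3, close to the array medians. WT 3 lay among the DKO arrays, and WT 1 and WT 2 lay below them after centring. The difference was 0.92 (SE 0.42), and 0.69 (SE 0.42) without WT 2. The other Sesn2 probe set read 0.34, and 0.69 without WT 2, where its groups did not overlap. It was the only 1 of the 22 tested probe sets of the 10 genes whose groups did not overlap without WT 2, at a background of 10.3% of all tested probe sets in that direction and 8.18% in the other. With all 6 arrays 0 of the 22 did so, at 6.97% and 3.29%.

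With all 6 arrays Sesn1 differed in sign from the other 9 genes. Its brightest probe set read 1263, 1541 and 869 on DKO 1 to DKO 3 and 1083, 4587 and 1273 on WT 1 to WT 3, so WT 2 alone set both its rank as the brightest and its negative difference of -0.32 (SE 0.47). Without WT 2 the difference was 0.00 (SE 0.27). The other 3 Sesn1 probe sets read 0.30, 1.37 and 0.67 with all 6 arrays. Without WT 2 they read 0.01, -0.03 and -0.08. Against the mean of WT 1 and WT 3, the WT 2 value was -4.18 for one Sesn1 probe set and 0.96 for the brightest.

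Aen encodes a nuclease that p53 induces and that digests DNA in dying cells. Its signal was 1181, 1225 and 1421 on DKO 1 to DKO 3 and 1096, 800 and 1418 on WT 1 to WT 3. It was the only 1 of the 10 genes with its highest value on DKO 3. The difference was 0.55 (SE 0.57), and 0.01 (SE 0.28) without WT 2. Its other probe sets read 0.10, 0.69 and -0.10, and -0.73, 0.14 and -0.04 without WT 2. On the first of these DKO 1 read 0.86 on the centred log2 scale, and DKO 2 and DKO 3 read 2.03 and 2.97.

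**Figure D2:**
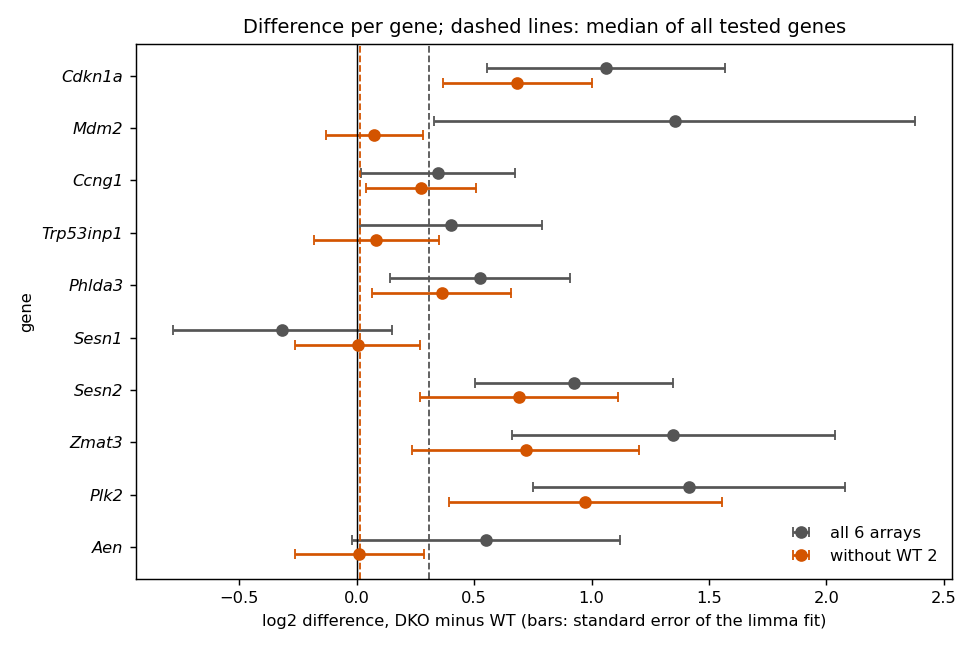
Log2 difference (x axis, DKO minus WT) of the brightest probe set of each gene with all 6 arrays (grey) and without WT 2 (orange), with the standard error of the limma fit as bars and the median of all tested genes as dashed lines (0.31 and 0.01). Mdm2 moves from 1.35 to 0.08 and Zmat3 from 1.35 to 0.72 without WT 2, and Plk2, Zmat3, Sesn2 and Cdkn1a then lie at 0.68 to 0.97.

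Leaving out WT 2 moved 2 of the 10 genes by over 1.5 times in fold, Mdm2 and Zmat3, and brought 4 genes, Mdm2, Trp53inp1, Sesn1 and Aen, to within 0.1 of 0. Over the 22 tested probe sets of the 10 genes, 19 read higher in DKO with all 6 arrays and 16 did so without WT 2, against 64.9% and 47.5% of all tested probe sets. Their median log2 difference was 0.54 and 0.08. WT 2 lay below both WT 1 and WT 3 in 16 of the 22 and above both in 4. Of the 7 genes with several tested probe sets, 3 had probe sets of both signs with all 6 arrays (Aen, Sesn1 and Trp53inp1) and 4 without WT 2 (Aen, Ccng1, Mdm2 and Sesn1). Cdkn1a and Sesn2 had probe sets of 1 sign in both comparisons.

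**Figure D3:**
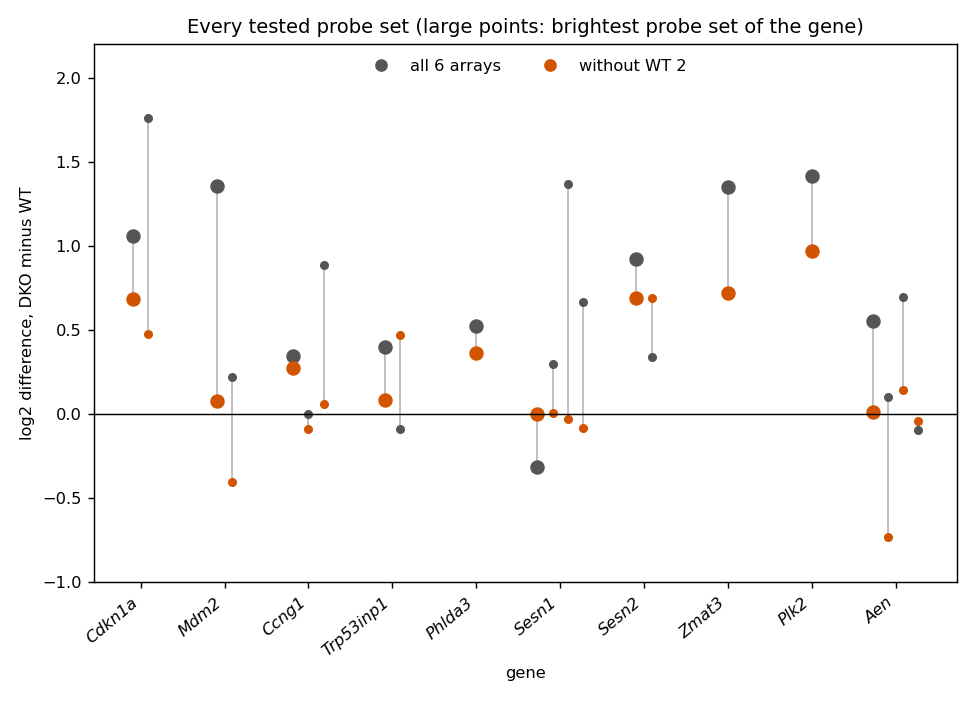
Log2 difference (y axis, DKO minus WT) of every tested probe set of the 10 genes with all 6 arrays (grey) and without WT 2 (orange), joined by a line, with the brightest probe set of each gene drawn larger. The 4 Sesn1 probe sets spread from -0.32 to 1.37 with WT 2 and lie between -0.08 and 0.01 without it.

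The DKO arrays were not alike for these genes. Against WT 1 and WT 3, DKO 2 stood above both for 9 of the 10 genes, where 33.2% of all tested genes did, and DKO 1 for 6, where 35.2% did. DKO 3 stood above both for 1 gene, Aen, where 49.2% of all tested genes did, between them for 6 and below both for Trp53inp1, Sesn1 and Zmat3. Cell type markers also differed between these arrays. Over the 5 arrays other than WT 2, the median deviation of the 10 genes was 0.21, 0.37 and -0.19 on DKO 1 to DKO 3, -0.29 on WT 1 and 0.07 on WT 3. That of 12 B lineage markers was 0.04, 0.19 and -0.14 on DKO 1 to DKO 3, and -0.16 and -0.04 on WT 1 and WT 3. That of 13 granulocyte markers was -2.48, -2.05 and 1.90 on DKO 1 to DKO 3, and 2.56 and 0.75 on WT 1 and WT 3. The summed signal of the granulocyte markers, not centred, was 696, 657 and 27936 on DKO 1 to DKO 3. It was 76126, 179495 and 19372 on WT 1 to WT 3, and all 13 markers read lower in DKO. Of 10 macrophage and monocyte markers 9 read lower. Their summed signal was 25437, 17261 and 29592 on DKO 1 to DKO 3 and 50939, 106396 and 20640 on WT 1 to WT 3. Of the 8 tested T and NK cell markers 6 read higher. The summed signal of all 10 was 986, 1628 and 280 on DKO 1 to DKO 3 and 342, 1157 and 290 on WT 1 to WT 3. Cd3d lay above the array median only on DKO 1 (1.26) and DKO 2 (2.15). Of the 12 B lineage markers, 2 had an unadjusted limma p under 0.05 with all 6 arrays and 4 without WT 2. Of all tested genes 3.3% and 4.18% did. The part of these markers in the values of the 10 genes was not tested. Leaving out single arrays other than WT 2 changed which genes had an unadjusted limma p under 0.05. Without DKO 3 these were 2 of the 10 (6.68% of tested genes), Plk2 at 1.99 and Zmat3 at 1.85. Without WT 3 they were 2 of the 10 (5.24% of tested genes), Cdkn1a at 1.48 and Sesn2 at 1.37. Without WT 1 it was Plk2 alone, at 1.86 (2.71% of tested genes). Without DKO 1 or DKO 2 it was 0 of the 10 (1.04% and 0.949% of tested genes). In each of these 5 comparisons 0 of the 10 passed the adjusted threshold (0% of tested genes). Without both WT 2 and DKO 3, a choice made after seeing the data that leaves 2 arrays a genotype, Zmat3 differed by 1.22 (limma adjusted p = 0.0240) and Plk2 by 1.55 (limma adjusted p = 0.0358), and the other 8 did not pass, where 5.72% of tested genes were called. With all 6 arrays and array weights, 6 of the 10 passed (Cdkn1a, Ccng1, Phlda3, Sesn2, Zmat3 and Plk2), where 30.1% of tested genes were called and the weights did not converge.

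**Figure D4:**
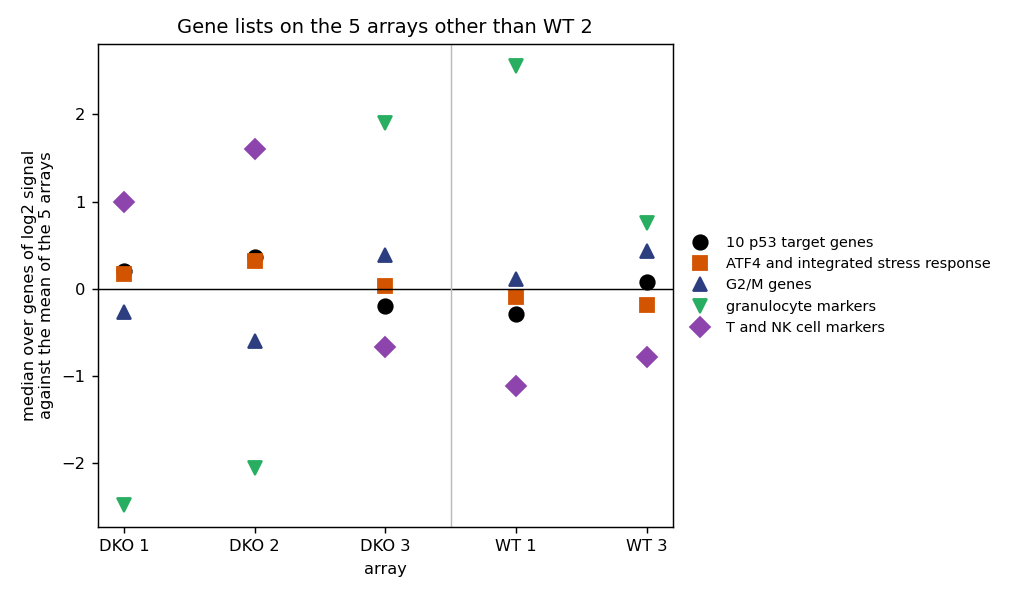
Median over genes of log2 signal against the mean of the 5 arrays (y axis) for the 10 p53 target genes and 4 other lists on each array other than WT 2 (x axis, genotypes parted by a vertical line). The 10 genes and the ATF4 list are highest on DKO 1 and DKO 2, the arrays on which granulocyte markers are lowest and T and NK cell markers highest.

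Regulators of p53 control its level or activity. Of 12 tested, 9 read higher in DKO with all 6 arrays and 6 without WT 2, with median log2 differences of 0.68 and -0.01, and 0 passed the threshold in either. The counts and medians of this list and those below stand beside 69.9% and 51.8% of all tested genes higher. The medians of all tested genes were 0.31 and 0.01. The groups did not overlap on the lower side for 1 of the 12, Ppm1d (-0.21), where 2.11% of all tested genes did, and without WT 2 for 2, Ppm1d (-0.19) and Usp7 (-0.07), where 5.56% did. On the higher side they overlapped for all 12. Cdkn2a, whose ARF product blocks MDM2, read 1.11 and, without WT 2, 0.37. Mdm4, an MDM2 relative that inhibits p53, read 1.45 and 0.29, and Rchy1, another p53 ubiquitin ligase, read 1.35 and 0.12. Trp53 itself was not analysed here.

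Targets of p53 that act in apoptosis read higher in DKO for 8 of 9 tested with all 6 arrays and for 6 of 9 without WT 2, with medians of 0.64 and 0.10. None passed the threshold. Fas, the death receptor, had groups that did not overlap and differed by 1.57 (SE 0.54) and by 1.10 (SE 0.45) without WT 2 (limma adjusted p = 0.822 and 0.949). It alone of the 9 had an unadjusted limma p under 0.05, in both comparisons (3.3% and 4.18% of tested genes). Fas and Aifm2 (0.38) were the 2 of 9 genes whose groups did not overlap on the higher side, where 8.49% of all tested genes did, and 0 did so on the lower side. Without WT 2 the same 2 did so, where 12% of all tested genes did. On the WT arrays both read close to or below the array medians, with signals of 34.8 to 80.4 for Fas and 42.0 to 114 for Aifm2. Pmaip1, which encodes the BH3 protein NOXA, read 1.17 and 0.51.

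Of 18 tested genes among the other arrest, repair and metabolic targets, 15 read higher with all 6 arrays and 10 without WT 2, with medians of 0.59 and 0.10 and 0 past the threshold. Ptprv, a receptor-like phosphatase gene induced by p53, read 1.02 and 0.67. It was the only 1 of the 18 whose groups did not overlap. This was on the higher side in both comparisons, where 8.49% and 12% of tested genes did so. Its unadjusted limma p was under 0.05 with all 6 arrays only, where 3.3% of tested genes had one. Tap1, a peptide transporter subunit, read 1.07 and 0.60, and Xpc, a sensor in nucleotide excision repair, read 1.20 and 0.35. The paralogues of the 10 genes, such as Sesn3 and Ccng2, had 10 of 15 higher with all 6 arrays and 5 of 15 without WT 2, with medians of 0.73 and -0.11. Isg20, a relative of Aen, read 1.06 and 0.72, and Mdm4 is given with the regulators. The groups of all 15 overlapped with all 6 arrays. Without WT 2, 3 of the 15 did not overlap on the lower side (5.56% of tested genes) and 0 on the higher. Plk3, a stress-responsive polo-like kinase, then read -1.09 (SE 0.36), against -0.29 with all 6 arrays. Without WT 2 it was the only 1 of the 15 with an unadjusted limma p under 0.05 (adjusted p = 0.949), where 4.18% of tested genes had one. Ccng2, a relative of cyclin G1, read -0.48 and Cdkn1c, a kinase inhibitor related to p21, read -0.36, against -0.30 and -0.15 with all 6 arrays. None of the 15 passed the threshold.

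The integrated stress response raises ATF4, which induces Sesn2 and genes of amino acid supply. Of 13 tested genes of that response, 10 read higher in DKO with all 6 arrays and 10 without WT 2, with medians of 0.69 and 0.20, and 0 passed the threshold. The groups did not overlap on the higher side for 4 of the 13 with all 6 arrays (8.49% of tested genes) and for 5 without WT 2 (12% of tested genes), and for 0 on the lower side in either. Trib3, a pseudokinase induced by ATF4 and CHOP, read 1.64 (SE 0.49), and 1.33 without WT 2. Chac1, a glutathione-degrading enzyme, read 1.79 (SE 0.59), and 1.81 without WT 2. Asns, asparagine synthetase, read 1.29 (SE 0.52), and 0.95 without WT 2. These 3 had unadjusted limma p under 0.05 in both comparisons, where 3.3% and 4.18% of tested genes did. The limma adjusted p of each was 0.822 and 0.949. Trib3 and Chac1 were also highest on DKO 1 and DKO 2, at 1.89 and 2.44 for Trib3 against 0.86 on DKO 3, and at 3.61 and 2.98 for Chac1 against 1.31 on DKO 3.

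Genes of the G2 and M phases are repressed through p21 and the DREAM complex. Of 14 tested, 10 read higher in DKO with all 6 arrays and 0 without WT 2, with medians of 0.31 and -0.44, and none passed the threshold in either. Among all tested genes 69.9% and 51.8% read higher, with medians of 0.31 and 0.01, so the values with all 6 arrays were near those of all genes. Cdc20, an activator of the anaphase ubiquitin ligase, read -0.54 and -0.19, and Cdc25c, the phosphatase that activates CDK1, read -0.54 and -0.38. Cdc25c was the only 1 of the 14 whose groups did not overlap, on the lower side in both comparisons (2.11% and 5.56% of tested genes). Plk1, the mitotic relative of Plk2, read 0.93 with all 6 arrays and -0.45 without WT 2. Over the 5 arrays other than WT 2 the median deviation of the 14 genes, for DKO 1 to DKO 3 in turn, was -0.27, -0.60 and 0.39, and for WT 1 and WT 3 it was 0.11 and 0.44, so DKO 3 lay on the side of the WT arrays for these genes too.

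**Figure D5:**
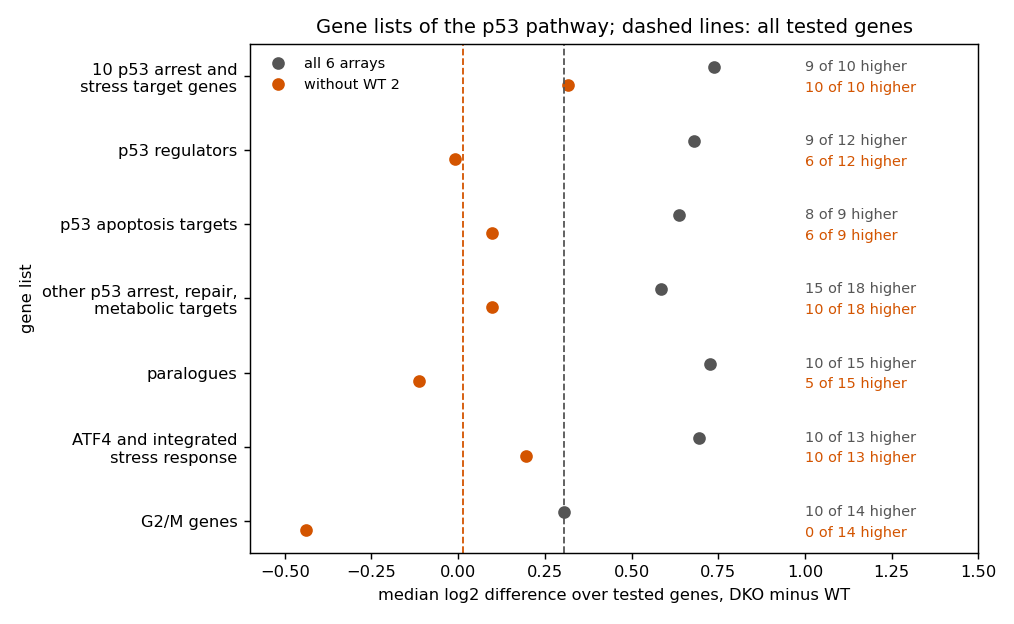
Median log2 difference (x axis, DKO minus WT) over the tested genes of each list (y axis) with all 6 arrays (grey) and without WT 2 (orange), the number of genes that read higher in DKO at the right, and the median of all tested genes as dashed lines. Without WT 2 the 10 p53 target genes have the highest of the 7 medians (0.32) and the G2 and M phase genes the lowest (-0.44). The lists were chosen with earlier results of these data known, so the order is a description only. Over all 22 tested probe sets of the 10 genes the median without WT 2 is 0.08.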

How the data were processed

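Each array of biotin-labelled total RNA has a deposited linear intensity for every probe set, and the submitters' processing notes name MAS5. Its version, detection calls and the batches of hybridisation were not analysed here. Of 45101 probe sets, 64 controls served for quality only. Symbols came from the platform annotation (34945 probe sets with 1 symbol, 932 with several, 9160 with none), updated by gene ID to GRCm38.p6 (34741 matched).

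Values were taken as log2(intensity + 16), each array centred on its median, and 27022 probe sets, those whose mean exceeded percentile 40, entered each comparison. limma 3.58.1 in R 4.3.3 fitted genotype alone, with variances that follow a trend, two-sided, Benjamini-Hochberg over all tested probe sets, threshold 0.05. The fit was tested on simulated data whose spread came from the arrays other than WT 2. That test therefore does not cover a fit that holds an array like WT 2. Tables and plots used Python 3.11.15, pandas 2.3.3 and matplotlib 3.10.9. A difference on this scale understates the change of dim genes, and the number of arrays limits the precision.

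Members, lists and settings were chosen with earlier results of these data known. The text names all 10 members and, of each further list, called genes or otherwise the 2 to 4 with the smallest unadjusted p, together with a few chosen after their values were seen (Aifm2, Plk1, Plk3, Sesn3, Ccng2, Cdkn1c, Ppm1d, Usp7 and Cd3d). Other settings were the normalization, centring, pseudocount, filter, variance model, array weights, replicate block, probe set of a gene and arrays left out. Erythroid and plasma cell markers were also listed. With all 6 arrays, 2 of 2 tested erythroid and 4 of 5 tested plasma cell genes read higher in DKO (69.9% of tested genes). Igha alone of these passed the threshold (0.00793% of tested genes). Without WT 2, 2 of 2 and 3 of 5 read higher (51.8% of tested genes), and 1 plasma cell gene passed (0.0159% of tested genes).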

Additional observations from a re-analysis of the deposited data

How the results depend on the processing

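None of the 10 genes passed the threshold with all 6 arrays under quantile normalization, other centring, pseudocounts of 1 or 64, no filter, other variance models or the replicate block. A filter at percentile 60 left out Sesn2, and none of the other 9 passed. Under quantile normalization and both other centrings, 9 of the 10 read higher and Sesn1 lower, as in the reported comparison. Array weights called 6 of them. Among all probe sets limma called 2, against 0 under quantile normalization, centring on tested probe sets, no centring and pseudocount 1, 1 with the filter at percentile 60 or robust variance, 2 with no filter or no variance trend, 3 with pseudocount 64, and 8129 with array weights, which did not converge. The replicate block, tried because the genotypes share replicate numbers, gave 0 calls. Deviations of same-numbered arrays correlated at -0.15, -0.0019 and 0.33, so the numbers were not taken as pairs.

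Without WT 2 the calls were 6, and 5 with quantile normalization or no centring. Leaving out 1 array, or WT 2 and another array (chosen after seeing the data), gave 0 to 1137 calls over all probe sets, the highest without WT 2 and DKO 3, and 0 to 2 among the 10 genes. The median difference of the 10 ranged from 0.11 to 1.16. Single genes that changed sign ranged from -0.058 to 2.06 (Mdm2), -0.010 to 0.56 (Ccng1), -0.065 to 0.67 (Trp53inp1), -0.58 to 0.21 (Sesn1) and -0.26 to 0.96 (Aen). Sesn1 also read 0.38 with array weights, 0.50 as the mean over its probe sets, and, without WT 2, 0.041 with quantile normalization and 0.021 with no centring. The cause was not tested. Cdkn1a, Phlda3, Zmat3 and Plk2 kept their sign under every setting run, and Sesn2 under every one that tested it. Some of these values were small. The lowest were 0.22 for Cdkn1a and 0.029 for Sesn2, both without WT 2 and WT 1, and 0.086 for Phlda3 under quantile normalization. For Zmat3 the lowest was 0.44, without WT 2 and DKO 2, and for Plk2 it was 0.53, without WT 2 and WT 3.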
